A study of Homo sapiens with 6 samples.

Results

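The genes described here encode 10 proteins that build coenzyme Q (ubiquinone) in human mitochondria: PDSS1, PDSS2, COQ2, COQ3, COQ4, COQ5, COQ6, COQ7, COQ8A and COQ8B. They were chosen by gene symbol alone, and each symbol matched 1 row among the 38648 genes listed in every deposited table. All 10 passed the filter on low counts, as did 15381 genes in all. RNA was sequenced from HPC, a human podocyte cell line, the epithelial cell type that covers the filtering capillaries of the kidney. The 3 libraries of the first group came from cells given a lentivirus overexpressing PRDM16, and the 3 of the other group from cells given a negative control (NC) lentivirus. All cells carried the label WT for genotype, all were kept in high glucose, and all titles give 24 h. Not given in the sources used here are how much glucose was used, what promoter drove PRDM16, and whether the replicates were separate cultures. The p-values therefore reflect the spread among these libraries alone, and that spread may be technical. The question was how PRDM16 changes transcripts of podocytes in high glucose.

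Coenzyme Q is a lipid that carries electrons in the inner mitochondrial membrane. It takes them from complexes I and II and from other dehydrogenases and passes them to complex III, and its reduced form also protects membranes from oxidation. It is made of a benzoquinone head and a long isoprenoid tail, which are joined in the mitochondrion and then modified by an assembly of COQ proteins. Podocytes are known for their sensitivity to its loss: inherited defects of COQ2, COQ6, COQ8B and PDSS2 cause steroid-resistant nephrotic syndrome, in which the filter leaks protein.

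None of the 10 genes passed the test for a difference between PRDM16 and NC libraries, and most fold changes were small beside their errors. PRDM16 itself had 11, 18 and 24 counts in the PRDM16 libraries and 0 counts in each NC library. It passed (edgeR quasi-likelihood test with Benjamini-Hochberg adjustment over all genes, adjusted p = 7.71e-04). Its counts stayed under the lowest count of any member, 136, so its level was low. Libraries held 20147135 to 41280350 counts, and the members had 136 to 3581 counts per library, so none was near the 3 counts taken as the floor of detection. Among podocyte markers, NPHS1 (nephrin) had 0 to 3 counts per library and WT1 1 to 4, while PODXL stood at 117 ± 8.35 CPM and SYNPO at 29.4 ± 2.17 CPM (CPM, counts scaled to library size with TMM factors; SD, n = 6). Both NPHS1 and WT1, defining transcripts of the mature podocyte, were thus at or near 0. Of the epithelial genes, PAX8, KRT8, KRT18 and PAX2 stood at 243, 1420, 679 and 32.6 CPM on average and CDH1 at 0.854 CPM. The mesangial and fibroblast genes PDGFRB and ACTA2 stood at 24.6 and 69.6 CPM. The endothelial genes KDR, PECAM1 and CDH5 had 0, 0 to 2 and 3 to 12 counts per library, and the leukocyte gene PTPRC 8 to 22. NC library 2 stood apart from the rest. Its chi-square values per degree of freedom against the other 5 libraries were 25.2 to 61.5, and those among the others 9.34 to 23.9. The lowest was between groups, for PRDM16 library 3 and NC library 1, while PRDM16 libraries 1 and 3 had 19.7. By this measure the libraries did not sort by lentivirus. In RNA from whole cultures, fewer cells of a kind and less RNA per cell cannot be told apart.

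The starts of 3 members are shown here because they are the extremes of base composition that the fold changes below are set against: the related COQ8A and COQ8B, whose transcripts are the richest in GC among the members, and PDSS2, among the poorest. Each is the stretch before 1 RefSeq transcript start (GRCh38.p14) that holds no GENCODE exon, 5′ to 3′ on the strand of the gene. CCAAT boxes, the element bound by the factor NF-Y, are in capitals (CCAAT or its reverse complement ATTGG). That start is not always the outer end of the gene as counted. The COQ8A stretch lies inside the listed span, which begins at 226939339, and that of PDSS2 lies partly inside the span, which ends at 107459681.
COQ8A, chr1:226940044-226940285, plus strand: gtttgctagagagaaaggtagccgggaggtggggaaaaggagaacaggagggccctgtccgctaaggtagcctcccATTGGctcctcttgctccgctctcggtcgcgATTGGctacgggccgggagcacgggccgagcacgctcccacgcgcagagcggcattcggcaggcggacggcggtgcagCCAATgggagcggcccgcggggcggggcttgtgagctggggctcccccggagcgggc
COQ8B, chr19:40716897-40717102, minus strand: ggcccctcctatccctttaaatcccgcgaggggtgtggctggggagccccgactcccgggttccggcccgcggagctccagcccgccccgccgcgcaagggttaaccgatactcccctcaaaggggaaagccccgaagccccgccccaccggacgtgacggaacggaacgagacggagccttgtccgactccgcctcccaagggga
PDSS2, chr6:107459565-107459814, minus strand: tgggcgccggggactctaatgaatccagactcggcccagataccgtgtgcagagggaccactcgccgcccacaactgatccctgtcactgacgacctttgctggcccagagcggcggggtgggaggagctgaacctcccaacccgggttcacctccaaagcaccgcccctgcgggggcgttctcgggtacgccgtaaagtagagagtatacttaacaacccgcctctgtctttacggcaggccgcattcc
Windows of 250 bases before a RefSeq start were listed for 8 of the 10 members (not COQ3 and COQ4). Only the window of COQ8B lay wholly outside the listed span of its gene. Those of PDSS2 and COQ7 lay partly inside, and those of PDSS1, COQ2, COQ5, COQ6 and COQ8A wholly inside. CCAAT, searched on both strands, was in 4 of these 8 windows: COQ2, COQ6, COQ7 and COQ8A. It was in 32% of the 35116 windows of that length in the RefSeq table. COQ8A held 3 copies and COQ2, COQ6 and COQ7 held 2 each, while COQ8B, PDSS2, PDSS1 and COQ5 held none. How many of all windows hold several copies was not counted. The letters GCGCATGC, a core of the NRF1 site, were in 1 of the 8 windows (COQ2) and in 2.63% of all windows, and the ETS core CCGGAAG, the CRE TGACGTCA and TATAAA were in 0 of the 8, against 8.52%, 1.65% and 10.7% of all windows. All motifs were searched on both strands and were chosen after the sequences were seen, none contains another, and a match is a description of letters only. The GC content of the printed stretches of COQ8A, COQ8B and PDSS2 was 69.8%, 69.9% and 62.4%, whereas that of their transcripts was 58.2%, 63.1% and 43.1%. Among the 8 windows PDSS1 was the richest in GC (74.8%) and COQ2 the poorest (45.6%), with transcripts at 43.2% and 48.2%. The fold changes below are set against the GC content of transcripts only.

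The members differed widely in level. COQ4 was the most abundant per length, at 83.8 ± 7.21 TPM over all libraries (TPM, transcript abundance corrected for gene length; SD, n = 6), followed by COQ8A at 67.5 ± 2.10 TPM. These 2 genes made up 55.3% of the summed TPM of the 10. COQ5 (33.1 ± 3.80 TPM), COQ8B (25.2 ± 3.02) and COQ2 (21.4 ± 1.97) came next. COQ7 (12.4 ± 1.23 TPM) was close to the median tested gene at 12 TPM, and COQ3 (9.54 ± 1.06), PDSS2 (7.95 ± 0.674), COQ6 (7.50 ± 0.598) and PDSS1 (5.15 ± 0.558) lay under it. In this order the ranges over the 6 libraries did not overlap between COQ4 and COQ8A, COQ8A and COQ5, COQ2 and COQ7, or COQ6 and PDSS1. Those of COQ5 and COQ8B, COQ8B and COQ2, COQ7 and COQ3, COQ3 and PDSS2, and PDSS2 and COQ6 did overlap. The place of COQ6 is uncertain, as 62.0% of its exon bases are shared with ENTPD5 and the assignment of reads there is not given. By mean TPM the enzymes that make the tail were thus among the scarcest transcripts of the pathway, and COQ4 and the kinase-like COQ8A the most abundant. The summed TPM of the 10 was 281, 277 and 275 in PRDM16 libraries and 285, 260 and 264 in NC libraries, and these sums overlapped.

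**Figure D1:**
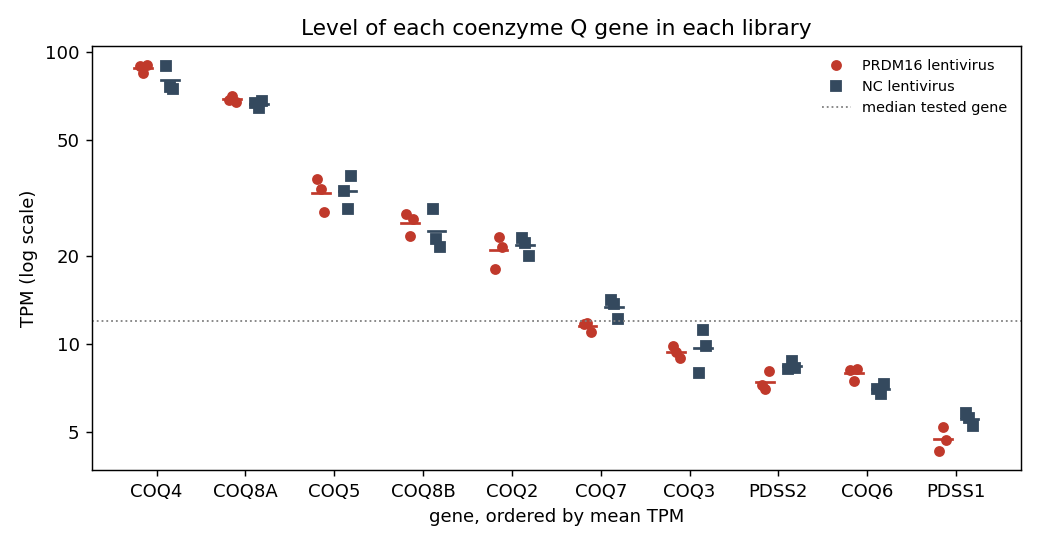
TPM of the 10 coenzyme Q genes in each library on a log scale, with PRDM16 libraries as circles on the left, NC libraries as squares on the right, and short lines at the group means. COQ4 averaged 83.8 TPM and PDSS1 5.15 TPM over all libraries, and the dotted line marks the median tested gene at 12 TPM.

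Levels between the groups were compared on CPM scaled by TMM factors, not on TPM. The median tested gene had a log2 ratio of -0.15 in TPM but -0.024 in the edgeR fit. The typical tested gene thus sat lower with PRDM16 in TPM, although TPM adds up to the same total in each library. On TPM the groups of PDSS1, PDSS2 and COQ7 did not overlap and were lower with PRDM16, which was also so in 17.3% of all tested genes, while on CPM all of them overlapped. COQ6 was higher without overlap on both scales, as 4.62% of all tested genes were on TPM. The log2 ratio of the mean TPM of COQ2, COQ3 and COQ5 was -0.06, -0.04 and -0.02, where the edgeR log2 fold changes below are positive, so the direction of these small differences depends on the scaling.

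The tail of coenzyme Q is made by PDSS1 (chr10:26697424-26747246, hg38) and PDSS2 (chr6:107152557-107459681), the subunits of decaprenyl diphosphate synthase. PDSS1 had 7.08, 8.26 and 6.83 CPM in PRDM16 libraries, against 8.25, 7.53 and 7.78 CPM in NC libraries. PDSS2 had 13.5, 12.6 and 13.3 CPM in PRDM16 libraries, against 13.3, 13.4 and 14 CPM in NC libraries. The groups overlapped in both genes, and the SD of PDSS2 was 0.492 CPM with PRDM16 and 0.367 CPM with NC, the tightest relative to its level of all the members. The log2 fold change was -0.09 ± 0.15 (SE) for PDSS1 and -0.04 ± 0.13 for PDSS2 (edgeR adjusted p = 0.758 and 0.867), with 95% intervals of -0.40 to 0.22 and -0.31 to 0.22. With single libraries left out PDSS1 was at -0.17 to -0.03 and PDSS2 at -0.06 to -0.01. COQ2 (chr4:83263824-83285134), the prenyltransferase that attaches this tail to the ring, had 13.6, 16.9 and 14.4 CPM in PRDM16 libraries and 15.1, 13.7 and 13.7 CPM in NC libraries. Its groups overlapped too, with a log2 fold change of 0.08 ± 0.13 (edgeR adjusted p = 0.743, 95% interval -0.19 to 0.36), and of -0.01 without PRDM16 library 2.

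The ring is then hydroxylated and methylated. COQ3 (chr6:99369401-99394223), the O-methyltransferase, had 8.44, 7.79 and 6.79 CPM with PRDM16 and 5.91, 7.81 and 7.63 CPM with NC, the lowest value being that of NC library 1, without which its log2 fold change was -0.02. COQ5 (chr12:120503279-120534613), the C-methyltransferase, had 28.3, 25.3 and 19.4 CPM with PRDM16 and 22.4, 18.3 and 26.3 CPM with NC, the widest relative spread of the members in both groups (18.5% and 17.9% of the mean). COQ7 (chr16:19067595-19080095), a hydroxylase of the late steps, had 15.9, 15.5 and 13.3 CPM with PRDM16 and 16.7, 15.2 and 15.1 CPM with NC. In each of these genes the groups overlapped. Their log2 fold changes were 0.10 ± 0.16, 0.12 ± 0.15 and -0.08 ± 0.13 (SE; edgeR adjusted p = 0.730, 0.663 and 0.757). The 95% intervals reached from -0.23 to 0.43 for COQ3, from -0.20 to 0.44 for COQ5 and from -0.34 to 0.19 for COQ7. The value of COQ5 was 0.00 without PRDM16 library 1 or NC library 2, and 0.26 without PRDM16 library 3 or NC library 3. That of COQ7 was between -0.12 (without PRDM16 library 1) and 0.00 (without PRDM16 library 3). Exons of COQ5 share 13.6% of their bases with RNF10 on the other strand, and those of PDSS1 share 16.1% with ABI1. After the overlaps were seen, each was summed with its neighbour. The log2 fold change of the sum was 0.03 ± 0.12 for COQ5 with RNF10 and -0.17 ± 0.12 for PDSS1 with ABI1 (edgeR adjusted p = 0.894 and 0.410). In NC library 1 RNF10 had 3440 counts and ABI1 1149, against 516 for COQ5 and 190 for PDSS1. The sums therefore mostly give the neighbours, which alone stood at 0.01 (RNF10) and -0.19 (ABI1), and say little about the members.

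COQ4 and COQ6 were the members with the smallest p. COQ4 (chr9:128322486-128334072), which organises the COQ protein assembly and acts on the ring, had 64.4, 59.1 and 57.4 CPM in PRDM16 libraries, against 56.0, 44.6 and 48.5 CPM in NC libraries. All 3 PRDM16 libraries were above all 3 NC libraries, with 57.4 and 56.0 CPM as the nearest values. Its mean was 60.3 ± 3.61 CPM with PRDM16 and 49.7 ± 5.78 CPM with NC (SD, n = 3). The log2 fold change was 0.28 ± 0.12 (SE, 95% interval 0.04 to 0.52), which missed the threshold in edgeR (adjusted p = 0.298). COQ6, the flavin-dependent ring hydroxylase, had 12.8, 11.3 and 11.5 CPM in PRDM16 libraries, against 9.55, 8.71 and 10.4 CPM in NC libraries, again without overlap. Its mean was 11.9 ± 0.806 CPM with PRDM16 and 9.56 ± 0.854 CPM with NC (SD, n = 3). Its log2 fold change of 0.31 ± 0.14 (SE, 95% interval 0.02 to 0.60) missed the threshold as well (edgeR adjusted p = 0.302). NC library 2 had the lowest CPM of all 6 libraries in COQ4 and COQ6, and likewise in COQ5, COQ8A and COQ8B. Without it the log2 fold change was 0.21 for COQ4, 0.26 for COQ6, 0.00 for COQ5, 0.14 for COQ8A and 0.16 for COQ8B.

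The kinase-like proteins COQ8A and COQ8B are ATPases that the ring-modifying assembly needs. COQ8A is mutated in a cerebellar ataxia and COQ8B in nephrotic syndrome. COQ8A (chr1:226939339-226987544) had 97.5, 97.8 and 85.6 CPM with PRDM16 and 82.6, 75.3 and 87.8 CPM with NC, and COQ8B (chr19:40691530-40716886) had 28.3, 23.1 and 24.0 CPM with PRDM16 and 25.4, 19.0 and 19.8 CPM with NC. In both, 1 NC library lay among the PRDM16 libraries, NC library 3 for COQ8A and NC library 1 for COQ8B. The log2 fold change was 0.19 ± 0.11 (SE) for COQ8A and 0.23 ± 0.14 for COQ8B (edgeR adjusted p = 0.357 and 0.354), with 95% intervals of -0.04 to 0.43 and -0.05 to 0.51. COQ8B was at 0.14 without PRDM16 library 1 and at 0.37 without NC library 1, and COQ8A at 0.14 to 0.25 with single libraries left out. The ratio of COQ8A to COQ8B in TPM was 2.44, 3.01 and 2.53 in PRDM16 libraries and 2.30, 2.81 and 3.15 in NC libraries. These ratios overlapped, and COQ8A was the more abundant of the pair in all 6 libraries.

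**Figure D2:**
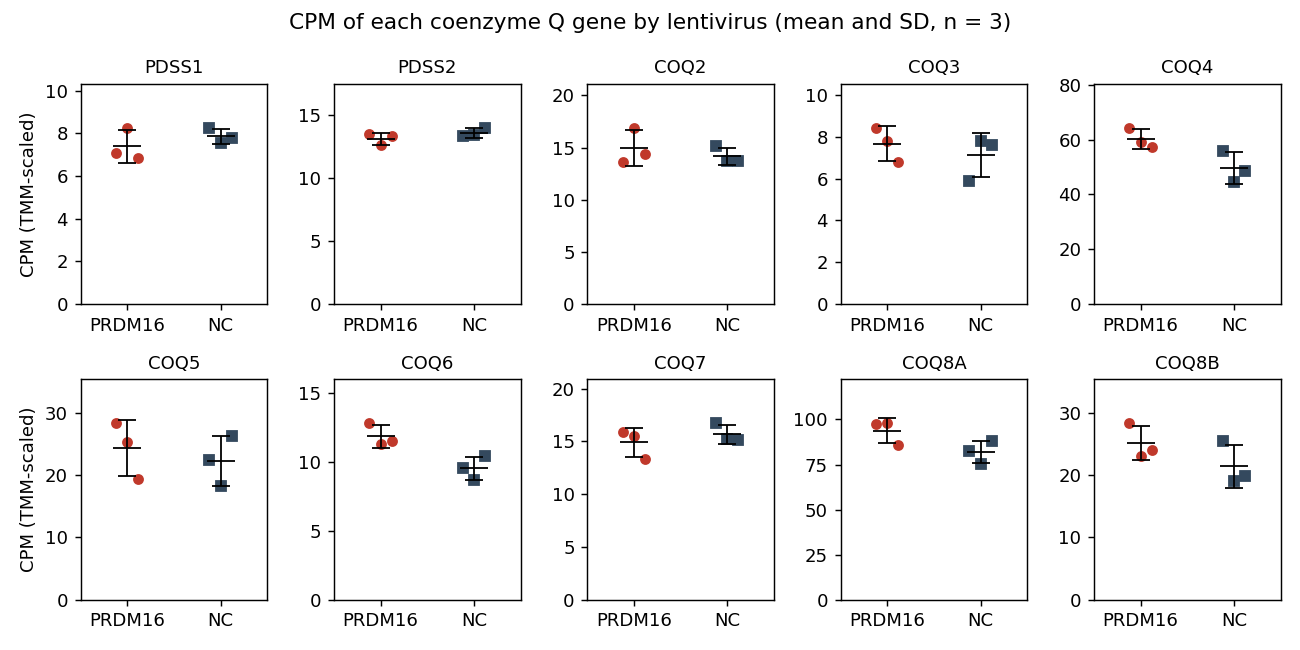
CPM (TMM-scaled) of each coenzyme Q gene, with 1 point per library, PRDM16 left of NC, and black bars for mean and SD (n = 3). The groups are separate in COQ4 and COQ6 and overlap in the other 8 genes.

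Of the 10 members, 0 passed in edgeR at an adjusted p of 0.05, where 0.065% of all tested genes did, and 0 passed in DESeq2 or limma-voom, where 0.267% and 0.0455% of all tested genes did. At an unadjusted p under 0.05 there were 2 members higher with PRDM16 (COQ4 and COQ6), where 9.23% of all tested genes were, and 0 lower, where 6.76% were, or 16.0% in either direction. DESeq2 put COQ4 under that limit, and limma-voom COQ4 and COQ6, where 14.7% and 15.3% of all tested genes were. Without overlap on CPM there were 2 members higher and 0 lower, where 12.2% and 8.77% of all tested genes were, or 21.0% in either direction. Counts of 2 among 10 are too small to set the members apart from these backgrounds. The log2 fold change was above 0 in 7 of the 10, where 46.9% of all tested genes were. The median over the members was 0.11, against -0.024 over all tested genes, and without PRDM16 library 3 it was 0.22. The upper ends of the 95% intervals lay between 0.19 and 0.60, so that folds above 1.52 with PRDM16 (COQ6) fell outside the interval of every member, and the lowest lower end was a fold of 0.758 (PDSS1).

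The fold changes of the members ran with the GC content of their transcripts, as those of all genes did. Across the 10 members Spearman's rho was 0.661, and across 13892 tested genes it was 0.639. These are correlations across genes measured in the same 6 libraries, given as a description only. COQ8B (63.1% GC), COQ8A (58.2%) and COQ4 (57.5%) had 3 of the 4 largest fold changes. PDSS1 (43.2%) and PDSS2 (43.1%) had values under 0. COQ3, the poorest in GC at 42.2%, stood above both of these at 0.10. COQ6, with the largest fold change, is near the middle at 50.7% GC. When a trend on length and GC content was removed within each library, the log2 fold change became 0.10 ± 0.07 (SE) for COQ4, 0.06 ± 0.07 for COQ8A and -0.02 ± 0.09 for COQ8B. It became 0.04 ± 0.13 for PDSS1 and 0.10 ± 0.10 for PDSS2. That of COQ6 was 0.33 ± 0.10 after removal (95% interval 0.10 to 0.55), and COQ6 was the 1 member with an unadjusted p under 0.05 (edgeR adjusted p = 0.752). At that limit 3.76% of genes were higher, or 6.47% in either direction, and 0.036% passed after adjustment, with 0 of the members. The median of the members was then 0.07, against 0.005 over all genes with a GC value.

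**Figure D3:**
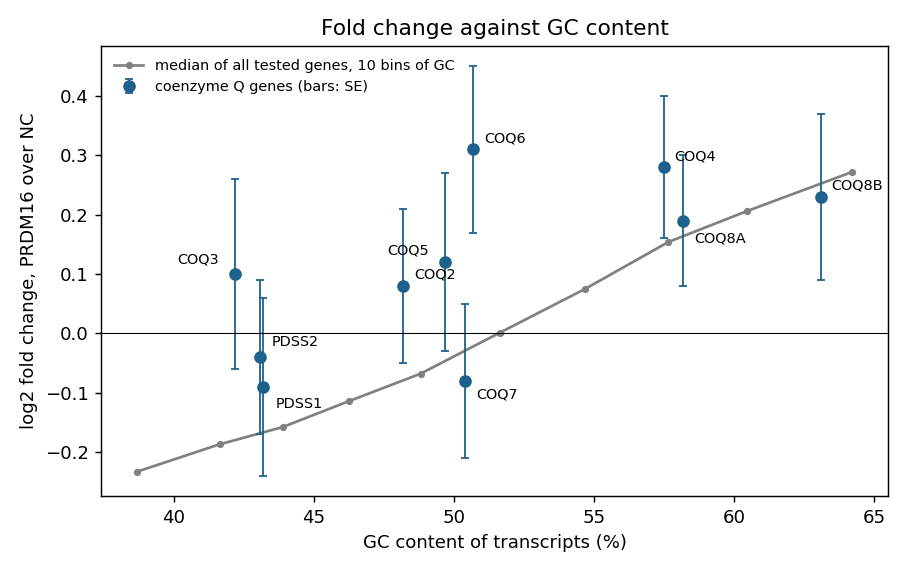
Log2 fold change (PRDM16 over NC) of each coenzyme Q gene against the GC content of its transcripts, with bars for the SE, over the medians of all tested genes in 10 bins of GC content (grey line). COQ4, COQ8A and COQ8B lie above 0 at 57.5% to 63.1% GC, where the line does too. Of the 10 members 8 lie above the line, among them COQ6 at 50.7%. As the line joins medians, about as many of all tested genes lie above it as below, and their exact share was not counted.

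**Figure D4:**
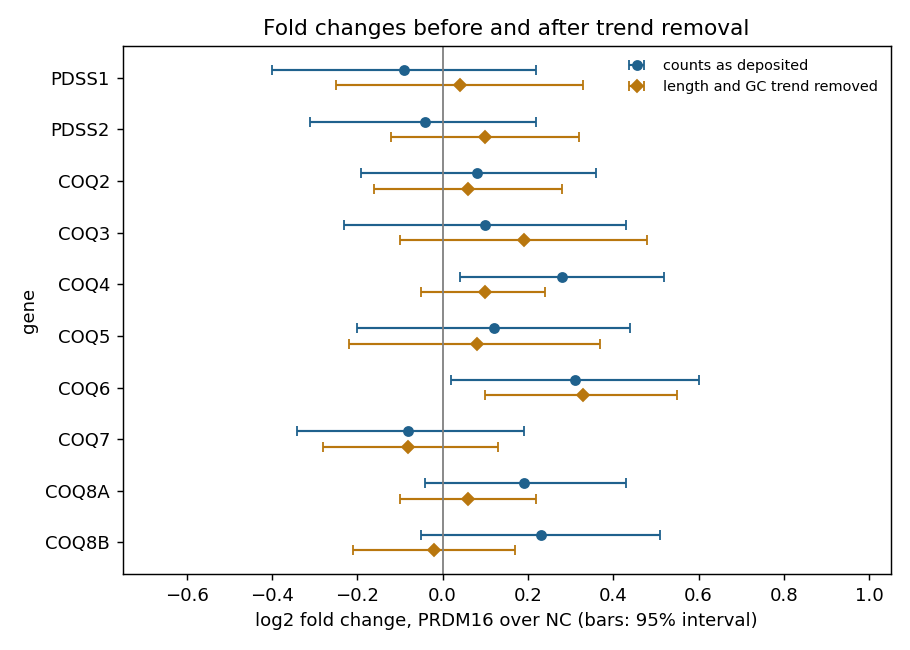
Log2 fold change (PRDM16 over NC) with its 95% interval for each coenzyme Q gene, from the counts as deposited (circles) and with the length and GC trend removed (diamonds). COQ4 is at 0.28 and 0.10, COQ8B at 0.23 and -0.02, and COQ6 at 0.31 and 0.33.

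The count of COQ6 is uncertain on its own. Of its listed exon bases, 62.0% are also exon of ENTPD5, a nucleotide phosphatase of the endoplasmic reticulum, and 5.35% of FAM161B, both on the other strand of chromosome 14, where COQ6 spans 73949926 to 73963670 (hg38, plus strand). How reads in shared bases were assigned, and whether strand was used, is not given in the sources used here, so reads of COQ6 and ENTPD5 cannot be told apart there. ENTPD5 had 17.6 to 18.3 CPM in PRDM16 libraries, against 19.1 to 21.2 CPM in NC libraries. The groups did not overlap, the PRDM16 values being the lower, which was also so in 8.77% of all tested genes. The test was not passed (edgeR adjusted p = 0.471, log2 fold change -0.16 ± 0.12). With the length and GC trend removed ENTPD5 stood at 0.00. COQ6 took 41.3%, 39.2% and 38.6% of the counts of COQ6 and ENTPD5 together in PRDM16 libraries, and 33.3%, 29.2% and 34.3% in NC libraries. These shares did not overlap between the groups, and no such share was computed for other pairs of genes. Exact 95% binomial intervals were taken for each library on its own. Their outermost ends were 35.8% and 45.4% in PRDM16 libraries and 26.1% and 38.1% in NC libraries. Some single intervals thus overlapped between the groups, and they cover counting error only. The sum of COQ6, ENTPD5 and FAM161B was 38.4, 37.3 and 38.0 CPM with PRDM16 and 36.5, 39.4 and 39.0 CPM with NC. Its groups overlapped, with a log2 fold change of -0.01 ± 0.12 (edgeR adjusted p = 0.957), a sum chosen after the overlap was seen. COQ6 gave 9.55 of the 36.5 CPM in NC library 1. Most of the sum is thus its neighbours, and the sum cannot show whether COQ6 itself changed.

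**Figure D5:**
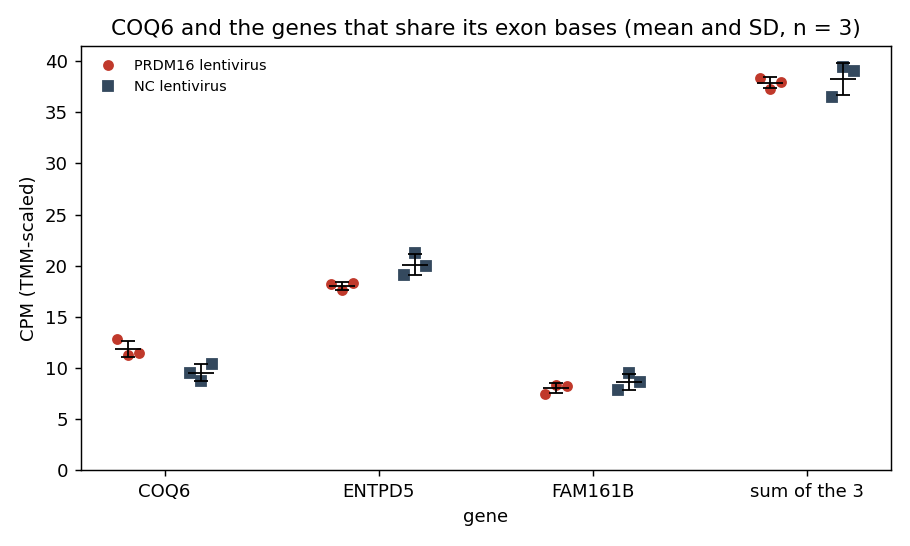
CPM of COQ6, of ENTPD5 and FAM161B, which share exon bases with it on the other strand, and of their sum, with 1 point per library, PRDM16 left of NC, and bars for mean and SD (n = 3). COQ6 is higher with PRDM16 and ENTPD5 lower, both without overlap, as were 12.2% and 8.77% of all tested genes. The sums, mostly ENTPD5 and FAM161B, lie between 36.5 and 39.4 CPM.

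Genes that work around the pathway were read from 5 further lists, and 0 passed in edgeR in each of them. Of the proteins that help the COQ enzymes, 9 of 10 could be tested (not PYURF), and 1 was higher at an unadjusted p under 0.05 and 0 lower, against 9.23% and 6.76% of all tested genes. This was FDXR, the reductase that with ferredoxin FDX2 feeds electrons to COQ6, at 549 ± 99.3 CPM with PRDM16 and 453 ± 34.9 CPM with NC (SD, n = 3), or 0.28 ± 0.13 on the log2 fold change scale (edgeR adjusted p = 0.310). FDX2 had 63.8 ± 5.59 CPM with PRDM16 and 53.7 ± 6.78 CPM with NC, and COQ9, the lipid-binding partner of COQ7, had 52.8 ± 2.61 CPM with PRDM16 and 46.4 ± 5.88 CPM with NC. With the length and GC trend removed the log2 fold changes of FDXR, FDX2 and COQ9 were 0.00, -0.08 and 0.04. FDXR was at 0.13 without PRDM16 library 1, and COQ9 at 0.09 without NC library 2. In the mevalonate pathway, which supplies the building blocks of the tail, 1 of 12 tested genes was higher at an unadjusted p under 0.05 and 0 were lower, again against 9.23% and 6.76% of all tested genes. This was MVD, a decarboxylase, at 82.9 ± 0.712 CPM with PRDM16 and 70.4 ± 4.51 CPM with NC (0.24 ± 0.11, edgeR adjusted p = 0.306), and -0.05 with the trend removed. PMVK, a kinase of that pathway, stood at a log2 fold change of 0.21, at -0.05 with the trend removed and at 0.08 without PRDM16 library 1. NUS1, a subunit of the enzyme that makes the longer dolichol chain, stood at -0.24, at -0.02 with the trend removed, and at -0.12 without NC library 2 and -0.15 without PRDM16 library 1.

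Of 14 tested enzymes that reduce coenzyme Q or feed its reduction, 0 were higher and 1 lower at an unadjusted p under 0.05, where 9.23% and 6.76% of all tested genes were. This was ETFDH, which passes electrons from fatty acid breakdown to coenzyme Q, at 8.01 ± 0.297 CPM with PRDM16 and 9.88 ± 0.824 CPM with NC (SD, n = 3), or -0.30 ± 0.14 on the log2 fold change scale (edgeR adjusted p = 0.311). GPD2, the glycerol phosphate dehydrogenase of mitochondria, was at -0.25 and ETFB, part of the flavoprotein that hands electrons to ETFDH, at 0.18, and both were at -0.06 with the trend removed. GPD2 was at -0.09 without NC library 2. Of 9 genes for subunits of complex III, which oxidises coenzyme Q, 5 were higher at an unadjusted p under 0.05, where 9.23% of all tested genes were, and 0 lower, with a median log2 fold change of 0.32, and 0.17 with the trend removed. UQCR11 was at 137 ± 19.7 CPM with PRDM16 and 105 ± 13.0 CPM with NC (0.39 ± 0.12, edgeR adjusted p = 0.282), and CYC1 and UQCRC1 at log2 fold changes of 0.36 and 0.32. With the trend removed UQCR11, CYC1 and UQCRC1 were at 0.17, 0.08 and 0.12. UQCRQ, named after its values were seen, was at a log2 fold change of 0.48 ± 0.19 and did not pass (edgeR adjusted p = 0.302). It passed without NC library 3 (log2 fold change 0.64, edgeR adjusted p = 0.00536), a setting in which 173 genes of the whole table passed, against 10 with all libraries. Of 19 other genes of inherited nephrotic syndrome, 14 could be tested, 2 were higher and 3 lower at an unadjusted p under 0.05, where 9.23% and 6.76% of all tested genes were, and NPHS1, WT1, TRPC6 and PTPRO were among those with too few counts. CD2AP, an adaptor of the slit diaphragm, was at 161 ± 16.1 CPM with PRDM16 and 206 ± 46.5 CPM with NC (-0.35 ± 0.14, edgeR adjusted p = 0.298). PLCE1, a phospholipase, and NUP107, a nucleoporin, were each at a log2 fold change of -0.31. With the trend removed CD2AP, PLCE1 and NUP107 were at -0.08, -0.12 and -0.09. Without NC library 2 CD2AP was at -0.15, PLCE1 at -0.25 and NUP107 at -0.11. Over the 14 tested genes of this list 7 had a log2 fold change above 0, and the median was 0.00.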

How the data were processed

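For each sample the authors deposited 1 table per library with raw read counts, TPM and FPKM per gene, per the file headers. Per the labels' protocols, oligo(dT) beads served to purify mRNA, and reverse transcription was primed by random hexamers. The build was hg38, per the submitters' processing notes, while aligner, counter, strand setting and annotation are not given in the sources used. FPKM as deposited equals the count divided by listed length and by the total of its library, and deposited TPM adds up to the same total in each library. Lines of 7 genes were rejoined. Groups came from the titles.

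The test was the quasi-likelihood F test (edgeR 4.0.16, R 4.3.3; robust, TMM, minimum count 10, minimum total 15) over 15381 genes, checked on simulated data. The threshold was 0.05 on the p adjusted by Benjamini-Hochberg over all tested genes. Standard errors and 95% intervals were taken from the fold change and F statistic. Alternatives used DESeq2 1.42.0, limma 3.58.1, other scaling, no filter, a replicate block, summed listings, and each library left out. GC content is the median over GENCODE transcripts of a gene name (90.3% of tested genes, all 10 members), and its trend and that of length (natural splines, 5 degrees of freedom) entered as offsets. Promoter windows come from RefSeq, taking the start nearest a GENCODE principal transcript. All pairs of libraries differed beyond sampling noise, with chi-square values of 9.34 to 61.5 per degree of freedom, the highest against NC library 2.

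The members, lists, motifs and tests were chosen with earlier results of these data known. The rule named all members, PRDM16, genes sharing exon bases with a member, and in each other list the genes that passed and the 3 with the smallest p. Values of some listed marker genes are not reported here.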

Additional observations from a re-analysis of the deposited data

How the results depend on the processing

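Of the coenzyme Q genes, 0 passed under each of 15 other settings, in which the log2 fold change of COQ6 ranged from 0.26 to 0.38 and that of COQ4 from 0.10 to 0.37. The same-numbered libraries did not deviate together (correlations of 0.0963, -0.106 and -0.136), not every library correlated best with its own number, and they were not treated as pairs. With the replicate number as a block 10 genes of the whole table passed and COQ6 stood at 0.31. Over all genes, where 10 passed, the count was 107 with no count filter, 41 with DESeq2, 18 with listings of 1 symbol summed, 5 with the length and GC trend removed and 4 with the block as well, and 7 to 173 with single libraries left out (173 without NC library 3, 59 without PRDM16 library 2, 20 without PRDM16 library 1). Without single libraries the median of the members ranged from 0.09 to 0.22.

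Directions turned with the trend removed in PDSS1 (0.04, and 0.04 with the block), PDSS2 (0.10 and 0.10), COQ8B (-0.02 and -0.02), FDX2 (-0.08 and -0.08), MVD (-0.05 and -0.05), PMVK (-0.05 and -0.05), ETFB (-0.06 and -0.06) and, with the block only, FDXR (-0.01). With single libraries left out COQ2 ranged from -0.01 (without PRDM16 library 2) to 0.14 and COQ3 from -0.02 (without NC library 1) to 0.18. The sum of COQ6 with its overlapping genes, most of it counts of those genes, stood at -0.01. It was added after seeing the data and cannot show whether COQ6 itself changed. The causes were not tested. In complex III 1 gene, UQCRQ, passed with no count filter, and 0 to 1 without single libraries.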
